A study of Mus musculus with 56 samples.

Results

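Interferons are secreted proteins that switch on a shared set of defence genes in cells that carry their receptors. Type I interferons act mainly through a DNA element called ISRE, and type II interferon, IFN-gamma, mainly through an element called GAS. The products of these genes bind viral RNA, block replication, guard membranes against intracellular microbes and load peptides onto MHC molecules. The kidney expresses them at a resting level, and its tubule cells, endothelium and resident macrophages can all respond.

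The genes described here are a list of 48 mouse interferon response genes, of which 47 have values in the deposited kidney table of 17027 genes. Mx1 was not analysed here. The members were chosen by results of these same kidneys, selected on their high level in the nighttime-restricted feeding groups of ZT0 and ZT8 and on their lower mean under daytime-restricted feeding over all 7 time points. Those levels are therefore given as a description without a test. From general knowledge of the pathway, 23 of the 47 were classed as mainly type I targets, 13 as mainly type II targets and 11 as targets of both, named shared.

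The kidneys came from 56 female C57BL/6J mice aged 9 weeks, all entrained to 12 h light and 12 h dark with free access to normal chow before the regimens. Food was then given only by day (daytime-restricted feeding, DRF) or only by night (nighttime-restricted feeding, NRF) for 7 days, and 4 mice of each regimen were sampled at zeitgeber time (ZT, h after lights on) 0, 4, 8, 12, 16, 20 and 24. ZT24 repeats the clock time of ZT0 in other mice. All groups shared strain, sex and age, and the summed markers of kidney tubule and glomerulus stood at 5307 to 12313 TPM in every library, as the tissue label says.

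Levels are TPM, reads per length of transcript scaled to the same total in every library, computed from the reads recovered out of the deposited values. Recovered reads, in units of 1e6, numbered 21.6 to 24.3 per library, and every member had a length at which its values came out as reads. All 47 passed the filter of a mean TPM of 1, which left 13403 genes to test. For 7 members (Oas1a, Trim30a, Dtx3l, Parp9, Eif2ak2, Ifit3 and Ifit3b) the counting had split reads with another gene. Ifit3 and its copy Ifit3b summed to whole reads in all 56 libraries within 0.05 of a read, so their separate levels are uncertain. Parp9 and Dtx3l overlap in the genome, as do Igtp and Irgm2, and whether strand was used in counting is not given in the sources used here.

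Both elements can be read in the promoters of the members. RefSeq promoter windows of 250 bases before to 50 after the start site (GRCm38.p6) were at hand for 36 of the 47 members. The letters GAAA, any 2 bases and again GAAA, on either strand, stood for the core of the ISRE. The letters TTC, any 3 bases and GAA, which read the same on both strands, stood for the GAS. At least 1 ISRE core was found in 18 of 36 members, 50% against 3.99% of all 27025 genes with a window. It was held by 10 of 17 type I members, 6 of 12 type II members and 2 of 7 shared members. The GAS letters were found in 10 of 36 members, 27.8% against 9.55% of all genes, among them 5 of 12 type II and 3 of 17 type I members. Matches are a description of the letters in these windows, and 14 of the 36 windows held neither.

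The stretches below carry the elements of some of these members, written 5′ to 3′ along the gene with the matched letters in capitals. The first group holds the ISRE core, in type I targets and then in type II targets. The positions are chr19:34640755-34640843 (+ strand) for Ifit1, chr4:156200845-156200926 (- strand) for Isg15, chr12:26456533-26456602 (- strand) for Rsad2, chr10:128270248-128270315 (+ strand) for Stat2, chr3:142620574-142620643 (+ strand) for Gbp2 and chr11:48871421-48871480 (- strand) for Irgm1.
Ifit1: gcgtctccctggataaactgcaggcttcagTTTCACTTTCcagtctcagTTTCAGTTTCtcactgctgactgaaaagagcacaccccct
Isg15: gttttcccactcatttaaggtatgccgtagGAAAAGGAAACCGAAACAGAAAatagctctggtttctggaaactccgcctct
Rsad2: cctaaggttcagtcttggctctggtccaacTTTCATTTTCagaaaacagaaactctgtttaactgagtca
Stat2: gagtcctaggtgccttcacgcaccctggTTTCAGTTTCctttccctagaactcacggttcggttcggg
Gbp2: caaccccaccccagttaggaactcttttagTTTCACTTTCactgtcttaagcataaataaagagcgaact
Irgm1: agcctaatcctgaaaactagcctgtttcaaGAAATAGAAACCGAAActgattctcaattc

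The second group holds the GAS letters, in 3 type II targets: Irf1 at chr11:53769894-53769962, Igtp at chr11:58199481-58199549 and Irgm2 at chr11:58214872-58214940, all on the + strand. Ifit1 holds 2 separate ISRE cores and Isg15 a run of 3 overlapping ones. Igtp and Irgm2 each also hold 1 ISRE core, left in lower case, shortly after the GAS letters.
Irf1: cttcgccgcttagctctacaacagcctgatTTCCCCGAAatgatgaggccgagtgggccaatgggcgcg
Igtp: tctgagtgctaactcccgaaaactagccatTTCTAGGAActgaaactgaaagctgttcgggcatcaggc
Irgm2: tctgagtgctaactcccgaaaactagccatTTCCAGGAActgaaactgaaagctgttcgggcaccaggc

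Under NRF, the kidneys of ZT0 and ZT8 carried the highest levels of the list. The highest of the 14 group means fell in NRF ZT8 for 33 members and in NRF ZT0 for the other 14. All 13 type II members had it at NRF ZT8, whereas type I members divided into 14 at ZT8 and 9 at ZT0. Relative to the mean of the 5 other NRF groups on the log2(TPM + 1) scale, type I members stood a median 1.24 higher at ZT0 and 1.06 higher at ZT8. Type II members stood 0.65 higher at ZT0 and 1.70 higher at ZT8. The median over all genes tested was 0.03 and 0.01. For type II members the kidneys of NRF ZT0 did not stand apart. Their mean level, in SD over the 56 libraries, was 0.17 to 1.32 there and -0.045 to 0.69 at NRF ZT4. NRF ZT16 replicate 1 reached 1.36.

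The differences that chose the members are given here as a description with no test. DRF minus NRF was below 0 in 45 of 47 members at ZT0, with a median of -0.71, and in all 47 at ZT8, with a median of -1.35. Over all 7 time points it was below 0 in all 47, with a median of -0.54. At ZT0 the median was -1.09 for type I, -0.62 for shared and -0.15 for type II members. At ZT8 it was -1.27, -1.20 and -1.96. The 4 NRF kidneys stood above all 4 DRF kidneys in 20 of 47 members at ZT0, 17 of them type I, and in 39 at ZT8, beside 12% and 13.7% of all genes.

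**Figure D1:**
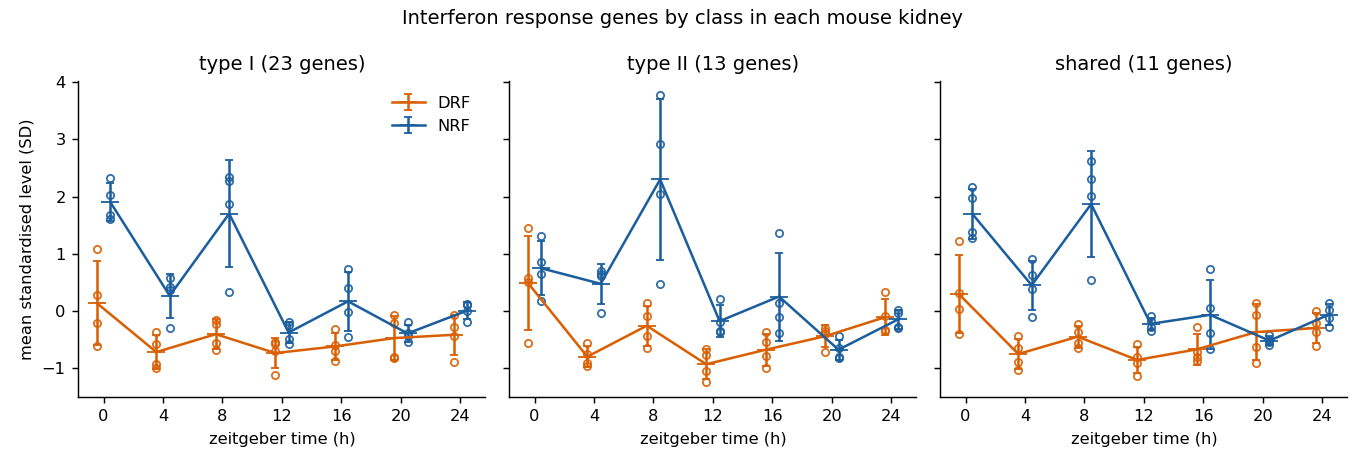
Mean standardised level of type I, type II and shared members (vertical axis, in SD of each gene over the 56 libraries) against zeitgeber time in h. Circles are single kidneys, bars the group mean ± SD of 4 mice, orange DRF and blue NRF. The means of NRF ZT0 and NRF ZT8 stand above those of the other NRF groups, though for type II members the kidneys of NRF ZT0 overlap with others. Type II members are highest at NRF ZT8, with 1 low kidney there.

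Among the antiviral effectors, Ifit1, which binds viral RNA that lacks a host cap, measured 64.5, 51.2, 79.5 and 57.2 TPM in the 4 kidneys of NRF ZT0. It measured 65.2, 27.99, 84.4 and 112 TPM at NRF ZT8. At NRF ZT24, one day after ZT0 by the clock, it was 14.6, 17.1, 15.0 and 17.7 TPM. All kidneys of both raised groups thus stood above all of NRF ZT24. Over the 28 DRF kidneys Ifit1 ranged from 8.30 to 41.7 TPM with a median of 13.3 TPM, and its top came from DRF ZT0 replicate 1. Isg15, a ubiquitin-like modifier, was 68.8, 61.7, 106 and 56.6 TPM at NRF ZT0 and 63.6, 27.3, 92.8 and 73.7 TPM at NRF ZT8, against 27.97, 32.4, 21.1 and 23.4 TPM at NRF ZT24. Its ZT0 kidneys stood apart from ZT24, whereas 1 of its ZT8 kidneys did not.

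Irf7, the transcription factor that amplifies type I interferon production, had the largest type I rise in both groups on the log2 scale. Its levels were 93.5, 81.7, 105 and 82.4 TPM at NRF ZT0 and 84.4, 61.8, 141 and 111 TPM at NRF ZT8. At NRF ZT24 they were 18.5, 21.7, 16.5 and 24.6 TPM, and no kidney of the raised groups overlapped with these. The mean at NRF ZT0 was 3.06-fold that of the 5 other NRF groups for Irf7, 3.32-fold for Ifit1 and 3.33-fold for Isg15.

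Some type I members were raised mainly at NRF ZT0. Oas2, which makes the activator of RNase L, measured 15.7, 15.3, 19.4 and 14.8 TPM at NRF ZT0 and 10.1, 4.57, 12.3 and 8.93 TPM at NRF ZT8, so all ZT0 kidneys were above all ZT8 kidneys. Rsad2 (viperin) measured 73.5, 73.0, 77.1 and 71.8 TPM at NRF ZT0 and 65.0, 42.8, 63.4 and 58.4 TPM at NRF ZT8. Cmpk2, its neighbour on chromosome 12 and a nucleotide kinase, measured 46.3, 45.4, 52.9 and 47.8 TPM at NRF ZT0 and 31.0, 20.3, 43.0 and 39.4 TPM at NRF ZT8. These were the 3 members whose ZT0 kidneys all exceeded the ZT8 kidneys, all 3 of them type I, and 15.4% of all genes tested did the same. Ifi27l2a, a small mitochondrial protein, had the next largest fall from ZT0 to ZT8, a difference of -0.82 on the log2 scale, after -0.86 for Oas2.

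The type II members were raised mainly at NRF ZT8. Igtp, an immunity-related GTPase, measured 314, 117, 1049 and 806 TPM at NRF ZT8 and 186, 104, 134 and 80.3 TPM at NRF ZT0. Irgm1, a regulator of that family, measured 183, 89.7, 420.5 and 383 TPM at NRF ZT8 and 122, 94.1, 122 and 75.6 TPM at NRF ZT0. Tap1, which pumps peptides into the endoplasmic reticulum for MHC class I, measured 54.6, 24.7, 119.9 and 86.4 TPM at NRF ZT8 and 26.0, 16.7, 21.5 and 13.2 TPM at NRF ZT0. In each of them 3 of the 4 ZT8 kidneys stood above every ZT0 kidney, and replicate 2 did not.

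Irf1, a transcription factor whose promoter holds the GAS letters above, was 38.8, 23.97, 105 and 109 TPM at NRF ZT8 and 35.8, 22.2, 26.6 and 20.5 TPM at NRF ZT0. Its NRF ZT0 mean was 1.25-fold that of the other NRF groups, and that of Psmb9, a subunit of the immunoproteasome, was 1.11-fold. Gbp3, a guanylate-binding protein, was the type II member whose 2 raised groups differed least, by 0.18 on the log2 scale. The most by which any type II member rose from ZT0 to ZT8 was 1.797, in Igtp. More than 2-fold over the mean of the other NRF groups were 15 of 23 type I and 2 of 13 type II members at ZT0, and 14 of 23 and 12 of 13 at ZT8.

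**Figure D2:**
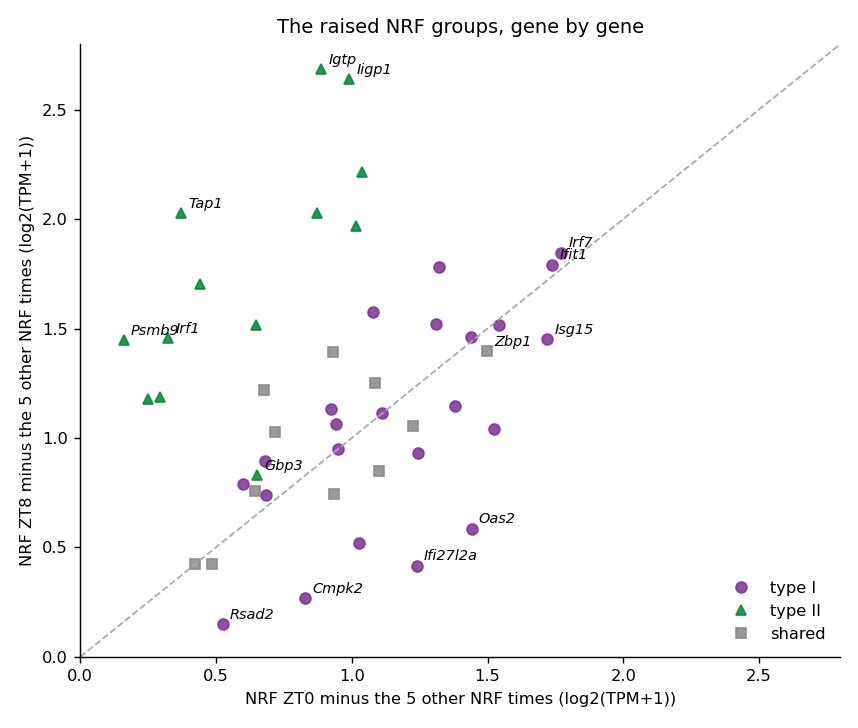
Each point is a member: its mean log2(TPM + 1) at NRF ZT0 (horizontal) and at NRF ZT8 (vertical), each minus the mean of the 5 other NRF groups, with the dashed line where both are equal. The 13 type II members (triangles) all lie above the line, and Oas2, Ifi27l2a and Cmpk2 lie furthest below it.

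One kidney, NRF ZT8 replicate 2, was the lowest of its group in 46 of 47 members. With it, no member had all 4 ZT8 kidneys above all 4 ZT0 kidneys, whereas 12.2% of all genes tested did. Without it, the median difference between ZT8 and ZT0 under NRF was 1.597 for type II and 0.26 for type I members, compared with 1.15 and 0.00 with it. The other 3 kidneys stood above every ZT0 kidney in 12 of 13 type II and 4 of 23 type I members, beside 15.2% of all genes tested. The type II median was above the type I median with and without this kidney.

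Which of these levels lasted was asked first with the mice of the same clock time. At NRF ZT24 the median member was 0.94 lower than at NRF ZT0 on the log2 scale, and all 47 were lower. The groups did not overlap in 41 members, including all 23 type I members, 7 of 13 type II and all 11 shared, as against 4.34% of all genes tested. These counts rest on the ZT0 group that chose the members and are a description. Under DRF, whose 7 groups entered the choice only through their mean, the ZT24 group was also the lower of the 2 for all 47 members, with a median of -0.35. None passed the limma test with an adjusted p under 0.05, as no gene did in the whole table (0%), and 14 of 47 members had an unadjusted p under 0.05 against 574 of all 13403 genes. The smallest adjusted p of a member was 0.63, for Trim25, an RNA sensing cofactor. Without DRF ZT0 replicate 1, which was highest in its group for 44 of 47 members, the DRF median was -0.13 and 42 of 47 were lower at ZT24.

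**Figure D3:**
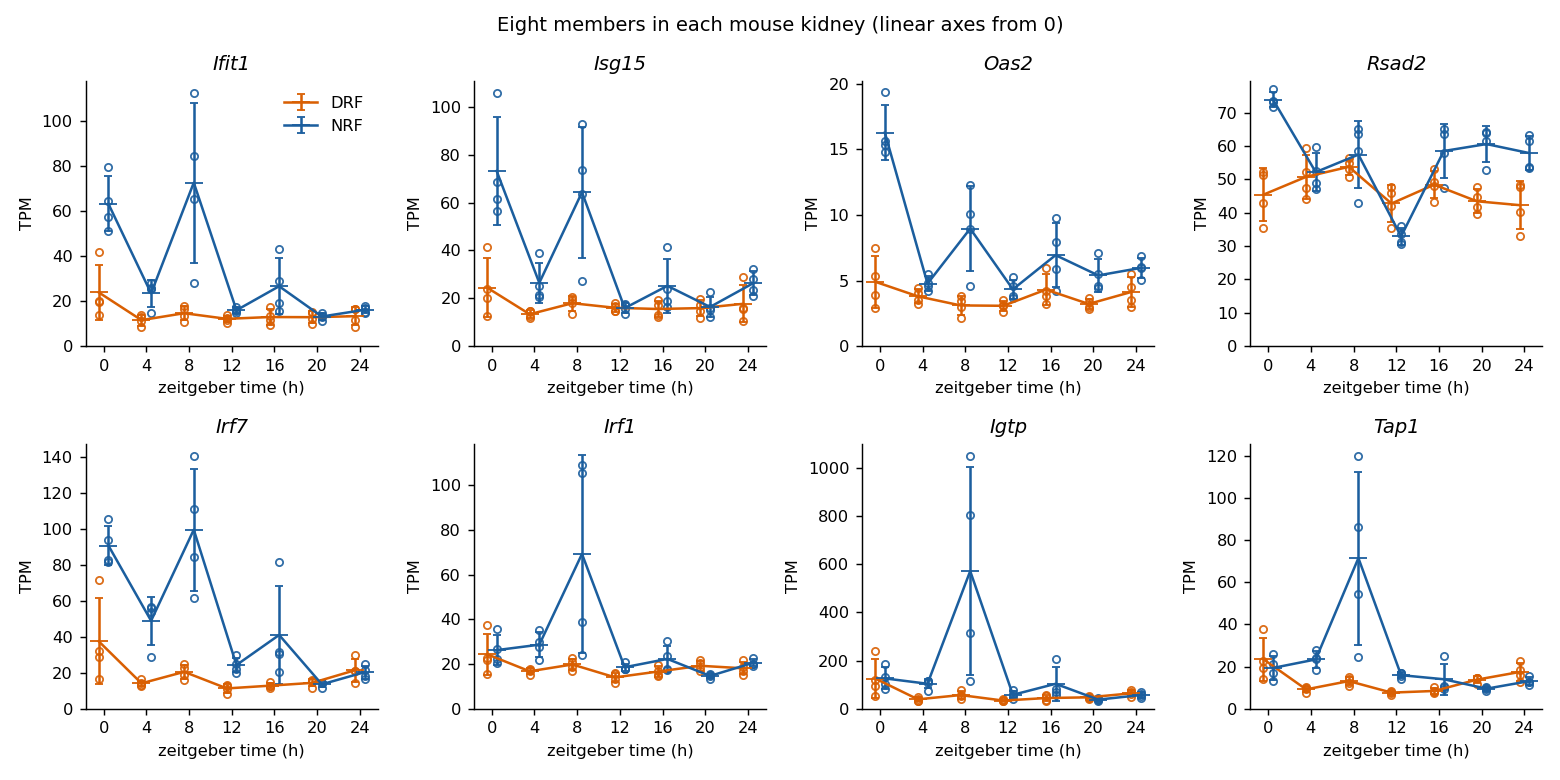
TPM of Ifit1, Isg15, Oas2, Rsad2, Irf7, Irf1, Igtp and Tap1 (vertical, linear from 0) against zeitgeber time in h, with single kidneys as circles and group means ± SD (n = 4) as bars, DRF orange and NRF blue. Ifit1, Isg15 and Irf7 are high at both NRF ZT0 and ZT8, Irf1, Igtp and Tap1 have their highest mean at NRF ZT8, and Oas2 and Rsad2 theirs at NRF ZT0.

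Whether the members were lower under DRF beyond those 2 times was asked at the 5 other time points. Each of them is part of the 7-time mean on which the members were selected. Neither the direction nor the number of these calls is therefore independent of the choice, unlike the shares of all genes beside them. At ZT4, 31 of 47 members (66.0%) were lower under DRF with an adjusted p under 0.05 in limma, none was higher, and of all genes tested 21.2% were lower and 9.73% higher. The median difference, DRF minus NRF, was -0.66, beside -0.07 over all genes. Outside ZT0 and ZT8, NRF ZT4 was itself the NRF group with the highest mean in 33 of 47 members. Whether the calls at ZT4 reflect a low DRF level or a high NRF level was not tested. Called were 14 of 23 type I, 10 of 13 type II and 7 of 11 shared members, with medians of -0.61, -0.89 and -0.55. The count was 17 without replicate 3 of both regimens, the lowest with 1 replicate number left out, and 32 without replicate 1.

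Irf7 differed most at ZT4. It measured 16.3, 13.3, 14.2 and 12.7 TPM under DRF and 29.0, 56.3, 56.2 and 54.0 TPM under NRF. The difference was -1.68 (adjusted p = 1.21e-05 in limma), and the groups did not overlap. Its ZT20 levels were 11.6, 14.7, 15.5 and 15.8 TPM under DRF and 14.3, 11.3, 14.5 and 14.3 TPM under NRF. All NRF ZT4 kidneys thus stood above NRF ZT20 in Irf7, whereas DRF ZT4 and DRF ZT20 overlapped. Iigp1, an immunity-related GTPase, measured 22.8, 18.0, 16.1 and 15.5 TPM under DRF and 38.6, 59.2, 64.8 and 66.6 TPM under NRF. Tap1 measured 10.2, 9.59, 9.68 and 7.28 TPM under DRF against 18.3, 27.8, 24.01 and 23.5 TPM under NRF. In these 3 genes, too, the kidneys of the regimens were fully apart. Lgals3bp, a secreted glycoprotein that binds galectin-3, measured 136, 127, 122 and 128 TPM under DRF against 237, 275, 368 and 290.2 TPM under NRF.

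At the later time points few members passed the test. At ZT12, 8 of 47 were lower under DRF and 1 higher (17.0% lower, beside 13.9% of all genes lower and 8.02% higher), and at ZT16, 8 were lower and 1 higher (beside 6% and 2.48%). The share at ZT12 is near the background. The medians were -0.34 and -0.40, and the calls at ZT16 in either direction (8.48% of all genes) went from 9 to 5 without the 2 libraries described below. Irf7, Lgals3bp and Psmb8, an immunoproteasome subunit, were lower at both times. At ZT20, 3 members were lower (8.3% of all genes were) and 1 was higher (11% were), with a median of 0.07. At ZT24, 2 were lower, beside 8.07% of all genes lower and 7.92% higher, with a median of -0.13. No type II member passed at either of these times.

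Rsad2, Cmpk2 and Trim25 did not follow the others. Rsad2 was higher under DRF at ZT12 (35.3 to 47.8 TPM against 30.5 to 36.1, a difference of 0.36, adjusted p = 0.023 in limma), with 1 DRF kidney within the NRF range. At ZT20 it was lower, at 41.6, 39.4, 44.8 and 47.8 TPM against 61.4, 52.8, 64.2 and 63.8 TPM under NRF (-0.47, adjusted p = 0.0035). At ZT24 Rsad2 and Cmpk2 were the 2 members called, at -0.46 and -0.58. Trim25 was lower under DRF at ZT4 (-0.52) and ZT12 (-0.28) and higher at ZT16 (0.26) and ZT20 (0.27). Rsad2 and Trim25 were among the members least like the rest, with a Pearson r to the mean of all members of 0.53 and 0.65 over 56 libraries. The median r was 0.92 and the highest 0.98, in Oasl2. These libraries share their groups, so r is a description.

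**Figure D4:**
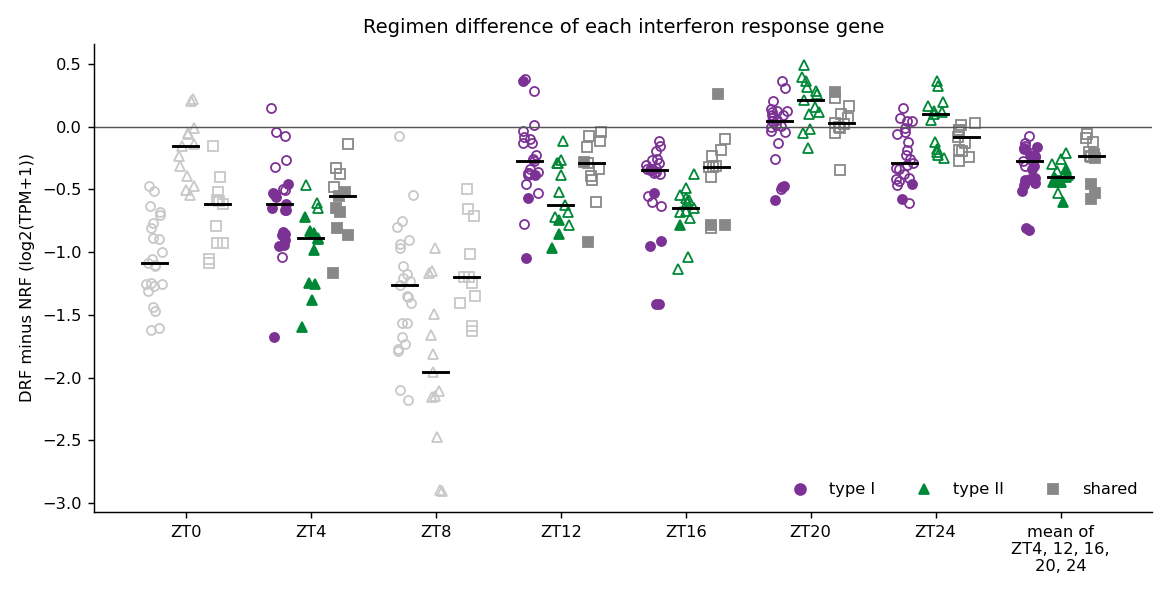
DRF minus NRF in log2(TPM + 1) (vertical) for each member at each time point and for the mean of 5 time points, by class. Filled symbols have an adjusted p under 0.05 in limma, open ones do not, black bars are class medians, and ZT0 and ZT8 are grey and untested because their NRF groups chose the members directly, while the other times entered the choice through the 7-time mean. Class medians are lowest at ZT4 among the coloured times and 0.03 to 0.21 at ZT20.

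Averaged over ZT4, ZT12, ZT16, ZT20 and ZT24, 28 of 47 members (59.6%) were lower under DRF in limma, beside 5.85% of all genes lower and 1.51% higher, and none was higher. All 47 estimates were below 0, with a median of -0.31, as against -0.54 over all 7 time points and -0.02 for all genes over these 5. These 5 times are part of the 7-time mean that chose the members, so these counts and directions are not independent of the choice. Called were 15 of 23 type I, 8 of 13 type II and 5 of 11 shared members. The count also depended on the scaling: it was 15 with median-of-ratios scaling, 10 with limma-voom on the recovered reads and 11 to 12 with 1 replicate number left out.

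Sorted by role, the 5-time average was lower with an adjusted p under 0.05 for 8 of 12 antiviral effectors, 3 of 5 signal transducers and transcription factors and 4 of 8 GTPases. It was lower for 4 of 6 sensors of foreign nucleic acid, all 4 antigen processing genes and 5 of 12 other induced genes. Ifi27l2a differed most, by -0.83 ± 0.19 (SE), followed by Irf7 at -0.80 ± 0.13 and Iigp1 at -0.60 ± 0.19, and Lgals3bp by -0.57 ± 0.09. With 1 replicate number left out, Ifi27l2a ranged from -0.97 to -0.68 and Irf7 from -0.88 to -0.76, so the order of these 2 was not stable. Bst2 (tetherin, which holds budding virus at the membrane) differed by -0.53 ± 0.11 and Ifit1 by -0.52 ± 0.13. Igtp, at -0.53 ± 0.18, did not pass (adjusted p = 0.052 in limma).

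Several abundant members did not pass or differed less. Ly6e, a membrane protein of 221 to 564 TPM, had a difference of -0.12 ± 0.09, and Ifit3 one of -0.21 ± 0.16, and neither passed. Ifi27 differed by -0.42 ± 0.09, Irgm1 by -0.41 ± 0.12 and Gbp3, which did not pass, by -0.30 ± 0.14. The antigen processing genes Psmb8, Psmb9, Tap1 and Psmb10 lay at -0.44, -0.40, -0.39 and -0.33. Of the sensors, Zbp1, which detects left-handed nucleic acid, differed by -0.45 ± 0.12, Dhx58 by -0.31 ± 0.09 and Eif2ak2 (PKR) by -0.16 ± 0.05. Ddx58 (RIG-I) and Trim25 did not pass. Of the transducers, Stat2 differed by -0.24 ± 0.08, while Usp18, which restrains the type I receptor, and Irf1 did not pass at -0.27 ± 0.09 and -0.26 ± 0.11.

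The difference itself varied over those 5 time points in 16 of 47 members (34.0%), a smaller share than in all genes (46.1%). By class these were 7 type I, 6 type II and 3 shared members.

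Within the regimens, the members were tested for change over time without comparing a raised group. The cosine fits left the raised groups out. The test between DRF time points took its spread from all 14 groups, NRF ZT0 and ZT8 included. Under DRF, 23 of 47 members differed between time points (48.9%, beside 55.6% of all genes), 10 of 13 of them among type II and 9 of 23 among type I. A 24-h cosine passed in 17 members (36.2%, beside 37% of all genes), 8 of them type II, and all 17 fitted peaks lay between ZT20 and ZT4. The DRF group with the highest mean log2 level was ZT0 in 41 of 47 members, and in 35 of 47 without DRF ZT0 replicate 1. All 4 kidneys of DRF ZT0 stood above all of DRF ZT4 in 22 members, beside 13.9% of all genes. Tap1 was 37.8, 14.3, 22.5 and 19.4 TPM at DRF ZT0 and 8.49, 7.55, 8.06 and 6.56 TPM at DRF ZT12, with no overlap. Under NRF without ZT0 and ZT8, a cosine passed in 14 members (29.8%, beside 40.1% of all genes). Of these, 11 had a fitted peak between ZT4 and ZT12, a span with no sample in this fit once ZT8 is left out. The other 3, Rsad2, Cmpk2 and Ifi44, had fitted peaks at 21.7, 20.98 and 22.3 h.

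DRF ZT0 replicate 1 and NRF ZT16 replicate 1 stood high in their groups. NRF ZT16 replicate 1 was highest in 36 of 47 members, with 81.3 TPM of Irf7 where the others of its group had 31.7, 30.7 and 20.4 TPM. Without both, the rhythm under NRF passed in 33 members in place of 14, the time differences under DRF in 18 in place of 23, and the 5-time average in 26 in place of 28. The shares of all genes without both are not reported here, so these counts have no background beside them.

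Over the 5 time points and at ZT4, a smaller share of the upstream genes passed the test than of the members. Of 9 receptor subunits and kinases tested, 1 was lower over the 5 time points, Il10rb, a subunit of the lambda interferon receptor, by -0.17 ± 0.03. Ifnar1 (38.8 to 52.2 TPM over all libraries), Ifnar2, Ifngr1 and Ifngr2 did not pass there, and 5.85% of all genes were lower. At ZT4, 4 of the 9 were lower under DRF, beside 21.2% of all genes, Ifngr2 by -0.47 ± 0.09 and Ifngr1 by -0.36 ± 0.08. At ZT20, 2 of the 9 were higher under DRF, beside 11% of all genes. At ZT12 and at ZT24, 1 of the 9 was lower, beside 13.9% and 8.07% of all genes. Of 8 interferon ligands looked for, Ifng had a value. It was at most 2.01 TPM, from at most 18 reads, was listed at 0 in 1 library, and averaged 0.23 ± 0.21 TPM (SD, n = 4) at NRF ZT0, 0.77 ± 0.85 TPM at NRF ZT8 and 0.64 ± 0.31 TPM at NRF ZT24. Its highest mean of the 14 groups was at NRF ZT16, at 0.87 ± 0.61 TPM. Ifng was under the filter and was not tested, and the other 7 ligands were not analysed here.

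Further genes of the response that are no members were described too. Among the tested genes whose level was most like the members' mean over 56 libraries were Rnf213, Gbp9, Gm4951, Samhd1, Trim21, Gbp4, Cd274, Nlrc5 and Tgtp2, with r from 0.93 to 0.96. These genes were picked by this r, with the raised groups included, so their likeness to the members is no separate result. Over the 5 other time points 4 of 9 other regulators tested, 19 of 48 other induced genes and 9 of 12 MHC and peptide loading genes were lower under DRF in limma, with none higher. Of all genes tested, 5.85% were lower there. Nlrc5, the activator of MHC class I genes, differed by -0.44, Ciita, that of class II genes, by -0.35, and Gbp6, Gbp10 and Tgtp1 by -0.83, -0.75 and -0.73. H2-Ab1, Cd74 and B2m differed by -0.47, -0.38 and -0.37. Of the 10 sensing genes further upstream, Tlr7, Tlr9 and Ticam1 were lower, by -0.22, -0.25 and -0.12.

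Several leukocyte markers were also lower under DRF over the 5 time points, beside 5.85% of all genes. On the average of the 5 time points, all 4 pan-leukocyte markers (Ptprc, Coro1a, Cd53 and Laptm5), 8 of 10 macrophage and monocyte markers, 2 of 7 T and NK cell markers and both dendritic cell markers tested (Itgax and Xcr1) were lower under DRF, and 0 of 3 B cell and 0 of 3 red cell markers were. Ptprc (CD45) differed by -0.30 ± 0.05 and the granzymes Gzma and Gzmb by -0.82 and -0.94. At ZT4 the summed pan-leukocyte level was 40.3 to 63.8 TPM under DRF and 68.2 to 83.7 TPM under NRF, and at ZT20 50.9 to 55.9 and 50.3 to 56.7 TPM. Their part in the result was not tested, and in bulk tissue fewer cells of a type and less RNA per cell cannot be told apart.

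In the 2 raised NRF groups the summed markers lay mostly within the range of the other NRF groups or below it. The summed pan-leukocyte level was 49.4 to 75.6 TPM there and 50.3 to 83.7 TPM in the other NRF groups. The summed T and NK cell level was 8.70 to 39.2 TPM against 21.5 to 70.7 TPM. The summed macrophage and monocyte level was 267 to 468 TPM against 287 to 488 TPM. The summed dendritic cell level was 4.71 to 10.04 TPM against 4.47 to 11.3 TPM, with medians of 8.34 and 7.46 TPM. The summed neutrophil level was 3.90 to 9.71 TPM against 2.90 to 9.26 TPM, with medians of 4.78 and 4.92 TPM. Its mean at NRF ZT0, 7.15 TPM, was the highest of all 14 groups. Some single markers were also high: C1qa, C1qb and Xcr1 had their highest mean of all 14 groups at NRF ZT8, at 97.6, 86.1 and 2.67 TPM. Of the plasmacytoid dendritic cell markers, Siglech averaged 0.34 and 0.32 TPM at NRF ZT0 and ZT8, and Ccr9 0.14 and 0.15 TPM. The summed red cell markers (Hbb-bt, Hba-a2 and Alas2) were 264 to 1264 TPM in the raised groups and 854 to 3698 TPM in the other NRF groups, so that both raised groups were low in red cell RNA. Whether this has a part in their interferon response levels was not tested.

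**Figure D5:**
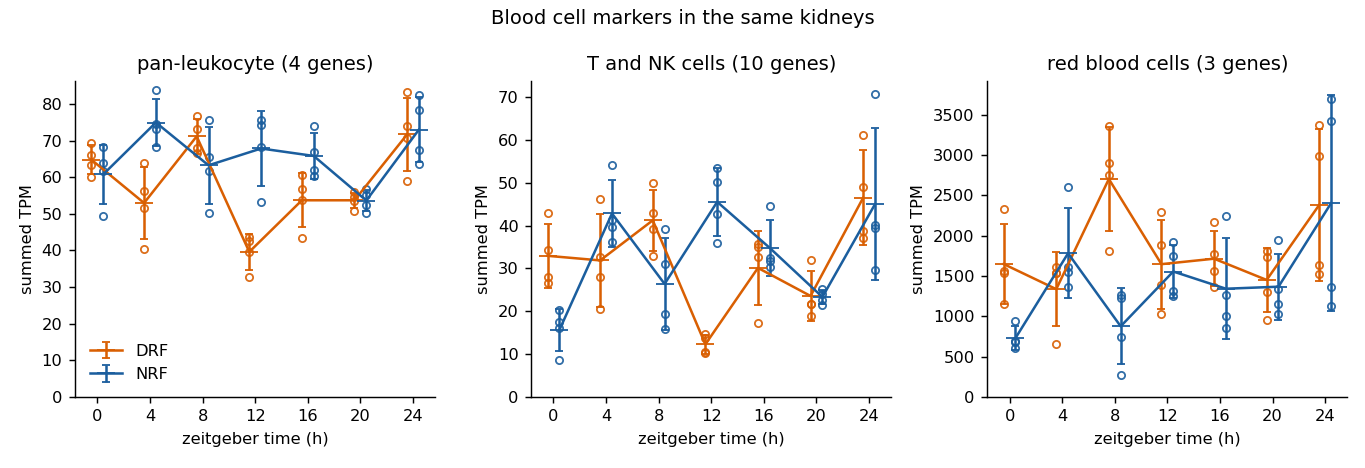
Summed TPM of marker genes of leukocytes, of T and NK cells and of red blood cells (vertical, linear from 0) against zeitgeber time in h, with kidneys as circles and group means ± SD (n = 4) as bars, DRF orange and NRF blue. Pan-leukocyte markers are lower under DRF at ZT4, ZT12 and ZT16 and not higher in NRF ZT0 or ZT8, and the means of the red cell markers are lowest in NRF ZT0 and ZT8, at 729 and 875 TPM.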

How the data were processed

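The labels describe poly(A) RNA of kidneys sequenced as paired reads of 100 bases on a BGISEQ-500. The submitters' processing notes name HISAT2, Bowtie2 and RSEM, and the builds mm10 and GRCm38.p6, with no versions. The authors deposited 1 table named TPM, whose values are treated here as a score: within a gene they scale with log2(CPM + 1) divided by gene length, and each column sums to 999145 to 999753. The design had assumed TPM on a linear scale. Columns of other samples numbered 0. One NRF ZT24 column carried a number absent from the labels, so it entered with its group and no replicate number.

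Each library's effective size (24.8 to 28.9 in units of 1e6 reads) and scale were found from the discrete steps of the values, with union exon lengths of GENCODE M21. Whole reads, within 0.1 of a read in at least 80% of values, came out for 14122 genes, reads in hundredths for 1452 and whole reads at a searched length for 874. The 553 genes with no fitting length and the 26 too abundant to check were left out. TPM were then formed from reads per base of exon over the 16448 genes kept. The lowest read number of a member in a library was 34, in Zbp1.

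Genes whose mean TPM reached 1 were fitted as log2(TPM + 1) on 14 group means with limma 3.58.1 (R 4.3.3, mean-variance trend), and p-values were adjusted by Benjamini-Hochberg over all genes tested, with a threshold of 0.05. All tests are two-sided. A fold change on this scale understates that of low genes. Rhythms were F tests of a 24-h cosine. The code was tested on simulated data. Alternatives were other scalings, pseudocount 0.1, no filter, a filter at 5, leaving out each replicate number, a replicate block, robust variances and, added after seeing the data, effective library sizes, limma-voom and leaving out 2 high libraries. The labels state group housing without the cages, so p-values measure the spread between these mice.

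The members and all lists were chosen with earlier results of these data known. Named were, in each role, the 3 members of highest mean TPM and the 2 with the largest difference over the 5 time points, with Irf7, Ifi27l2a, Ifit1 and Irgm1 from earlier results. Outside the members the rule named the 10 genes most like their mean (1 is not reported here), the ligands with a value and, in each pathway list, the 3 called genes with the largest difference. Other genes (such as Isg15, Oas2, Cmpk2, Ifi44 and the markers) were named after their values were seen. Of the other marker lists, 1 of 2 neutrophil and 2 of 7 tubule and glomerulus markers were lower under DRF over the 5 time points. Of the liver markers, 1 of 4 was higher. Markers of B cells, endothelium, fat, adrenal, pancreas and tubule injury gave 0 calls. Of all genes, 5.85% were lower and 1.51% higher there.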

Additional observations from a re-analysis of the deposited data

Results flagged for a closer look

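In 42 sets of 4 kidneys (3 classes in 14 groups), 1 value stood apart from the other 3 by more than Dixon's 95% limit for 4 values, a limit that chance passes in about 1 group in 20. In NRF ZT4 replicate 1, the type II members had a mean standardised level of -0.045, while the other 3 kidneys lay between 0.61 and 0.69. The DRF minus NRF difference differed between time points by the F test of ZT4, ZT12, ZT16, ZT20 and ZT24 in 16 members.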

How the results depend on the processing

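Over the 5 time points all estimates of members were below 0 in every setting run, with medians of -0.28 to -0.35 on log2 scales. The number called there was 15 with median-of-ratios scaling, 15 with effective library sizes, 16 on the deposited values and 10 with limma-voom, in place of 28. At ZT16, 5 members were called on the deposited values, 3 with limma-voom and 5 without the 2 high libraries, in place of 9. The rhythm under NRF passed in 9 members on the deposited values and in 33 without those libraries, in place of 14. The shares of all genes in these settings are not reported here, so the counts only show how far the calls moved. The cause was not tested.

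With each replicate number left out, 17 to 32 members were called at ZT4, 5 to 6 at ZT12, 1 to 7 at ZT16, 2 to 3 at ZT20, 1 to 2 at ZT24 and 11 to 12 over the 5 time points. The difference varied over time in 7 to 17 members. The DRF rhythm passed in 3 to 12, the NRF rhythm in 7 to 31 and the DRF time differences in 12 to 31. The NRF rhythm was highest and the DRF time differences lowest without replicate 1, and the DRF rhythm was lowest without replicate 3. These fits hold fewer samples, and the shares of all genes in them are not reported here.

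Replicate numbers did not pair the mice: same-numbered libraries had a median r of 0.003 (-0.77 to 0.73), and 14 of 55 correlated best with their own number. With a replicate block 22 members were called over the 5 time points. For single named members, 266 values kept direction and side of the threshold, 81 no longer passed, 1 newly passed and 0 reversed.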

Other observations

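Other marker lists gave these counts over the 5 time points, beside 5.85% of all genes lower and 1.51% higher. Lower under DRF were 0 of 3 B and plasma cell markers, 1 of 2 neutrophil markers, 0 of 5 endothelial markers, 2 of 7 tubule and glomerulus markers and 0 of 3 red blood cell markers. Also lower were 0 of 4 fat, 0 of 1 adrenal, 0 of 4 liver, 0 of 1 pancreas and 0 of 4 tubule injury markers, and 1 liver marker was higher. The summed fat markers ranged from 0.27 to 3241 TPM over all libraries.

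The members lie in several gene clusters. Ifit1, Ifit2, Ifit3 and Ifit3b are on chromosome 19, Gbp2, Gbp3 and Gbp7 on chromosome 3, and Psmb8, Psmb9 and Tap1 side by side on chromosome 17. On chromosome 5, Oas1a and Oas2 lie at one site and Oasl1 and Oasl2 at another. Neighbours differed in how closely they followed the members' mean: the r with it was 0.97 for Ifit1 and 0.84 for Ifit2, and 0.89 for Gbp2 and 0.77 for Gbp3.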
